A study of Homo sapiens with 4 samples.

Results

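Cells recognise double-stranded RNA, a form that many viruses make, through a small set of sensor proteins that pass the signal to shared adaptors. Here 8 of these genes were followed, by RNA sequencing, in bladder cancer cells given siRNA against 1 of 3 targets, namely a long non-coding RNA and a pair of RNA-binding proteins. They were chosen by name, with earlier results of the same data known: the sensors DDX58 (also called RIGI, the gene of RIG-I), IFIH1 (MDA5), DHX58 (LGP2), EIF2AK2 (PKR) and TLR3, and the signalling genes MAVS, TBK1 and IRF3. All 8 were found by Ensembl identifier in all 4 deposited tables, among 27629 genes listed in at least 1 of them. Because the choice used these measurements, the values are a description and no test was run on them.

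The cells were of the UM-UC-3 line, established from a human bladder cancer. All 4 cultures received 75 nM siRNA with the same lipid reagent, and each gave 1 library. The control culture received a negative control siRNA, and each of the other 3 received a mixture of 2 siRNAs, against lncRNA-LBCS (a long non-coding RNA), hnRNPK or PTBP1 (both RNA-binding proteins that act in splicing and other steps of RNA metabolism). RNA was extracted 48 h after transfection, a time stated for the control and si-hnRNPK cultures. With 1 library per condition there was no replicate error, so every difference below compares libraries, and all 3 comparisons share the same control library. RNA amounts were measured in bulk, so fewer responding cells and less RNA per cell cannot be told apart.

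RIG-I and MDA5 are cytosolic helicases that bind double-stranded RNA and then engage MAVS, an adaptor on the mitochondrial membrane. LGP2 is a related helicase without the signalling domains of the other two, and tunes them. PKR is a kinase that, once bound to double-stranded RNA, phosphorylates eIF2α and slows translation. TLR3 senses such RNA in endosomes. Downstream of MAVS and TLR3 the kinase TBK1 phosphorylates IRF3, a transcription factor that switches on interferon beta and a first wave of antiviral genes. Interferon then raises many of the sensors in turn.

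The delivered siRNAs are themselves short double-stranded RNAs, so they are shown first. Each strand below reads 5′ to 3′ as the labels give it, with its tt overhang, and capitals mark the 7 bases that a guide strand would pair with through its bases 2 to 8, the seed.
control siRNA: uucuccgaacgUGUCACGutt
si-lncRNA-LBCS siRNA 1: gcugcucauuuGUCUGAUctt
si-lncRNA-LBCS siRNA 2: ggugguagucaACACAAAutt
si-hnRNPK siRNA 1: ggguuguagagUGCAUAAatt
si-hnRNPK siRNA 2: gccuccaucuaGAAGAGAutt
si-PTBP1 siRNA 1: gccucaacgucAAGUACAatt
si-PTBP1 siRNA 2: cccucauugacCUGCACAatt

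None of the 7 siRNAs matched an annotated transcript of any of the 8 genes over its 19 paired bases. Shorter seed matches were counted in the longest coding transcript of each gene, beside the share of 19684 genes that hold at least 1. The control siRNA and si-hnRNPK siRNA 1 had seed matches in 0 of the 8 genes, against 6.42% and 13.3% of all genes. The seed of si-hnRNPK siRNA 2 was found in 6 of the 8 (DDX58, IFIH1, EIF2AK2, TLR3, MAVS and TBK1), against 41.0% of all genes. Those of the si-PTBP1 siRNAs were found in 5 and 4 of the 8, against 22.1% and 30.6%, and those of the si-lncRNA-LBCS siRNAs in 2 and 3, against 14.2% and 25.0% of genes. The shares of all genes were not matched for transcript length, and MAVS (11714 bases) and EIF2AK2 (10042 bases) are long. No excess is therefore read from these counts. Any part of these matches in the levels below was not tested.

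The libraries held 54301152 to 70232674 reads on listed genes, and levels are given as CPM, a read count scaled to a common library size. The targeted genes were checked first. HNRNPK stood at 187.8 CPM in the si-hnRNPK library, against 783.1 CPM in the control, and PTBP1 at 89.7 CPM in the si-PTBP1 library, against 280.0 CPM. The gene that both lncRNA-LBCS siRNAs match, AL022068.1 on chromosome 6, had 110 reads in the control and 103 in the si-lncRNA-LBCS-labelled library, a CPM ratio of 0.818 with a counting interval of 0.619 to 1.08, so no lowering of the target was detectable there at this depth. The labels give a qPCR level of 0.13 relative to control for the same target. For si-hnRNPK and si-PTBP1 they give 0.08 and 0.1, where the CPM ratios of HNRNPK and PTBP1 were 0.240 and 0.320. Markers of urothelial and epithelial cells summed to 157.4 to 220.5 CPM over the 14 of 16 that were matched, carried by KRT8 and KRT18. KRT7, PPARG and FOXA1 stood at 1.42 to 5.19 CPM over the libraries, while UPK2, GATA3, KRT5 and EPCAM were at or near 0. TP63 had 0.342 CPM with control siRNA, 0.513 in the si-lncRNA-LBCS-labelled library, 2.50 with si-hnRNPK and 2.37 with si-PTBP1. Mesenchymal markers, led by VIM, summed to 1668 to 2574 CPM.

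In the si-hnRNPK library the sensors were high and the adaptor, kinase and transcription factor below them stood close to control. DDX58, IFIH1 and TLR3 were 7.51 to 10.1 times their control level and EIF2AK2 2.16 times, while MAVS, TBK1 and IRF3 lay between 0.842 and 1.16 times. A gene was compared where it reached 1 CPM in at least 1 of the 2 libraries, and was called up or down where log2(CPM + 1) differed by 1 or more. By this rule 4 of the 8 rose and 0 fell, beside 3.55% of 13672 genes that rose and 3.93% that fell in this comparison. TLR3 and DHX58 entered it only through their si-hnRNPK level. The control library held 6 of the 8 at 1 CPM or above, and 3 of these rose. The rule for choosing the genes drew on this comparison, so nothing is read from that count. The median difference was 1.02 over the 8 and -0.11 over all genes.

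**Figure D1:**
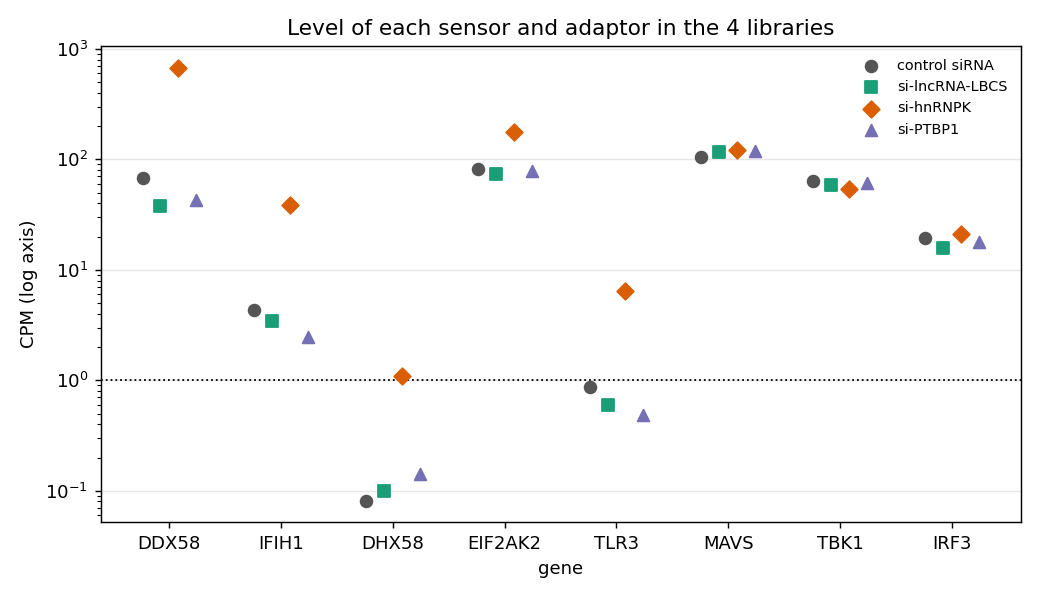
Level of each of the 8 genes in CPM (log axis) in the 4 libraries, 1 point per library; the dotted line marks 1 CPM. The si-hnRNPK point is the highest for DDX58, IFIH1, DHX58, EIF2AK2 and TLR3, while the 4 points of MAVS lie between 105.0 and 121.7 CPM.

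DDX58 (chr9:32455705-32526324, minus strand, GRCh38), the RIG-I gene, stood at 67.1 CPM with control siRNA, 38.2 in the si-lncRNA-LBCS-labelled library, 677.4 with si-hnRNPK and 42.5 with si-PTBP1. The si-hnRNPK level was the outlying one, and the control level was the second highest. The CPM ratio to control in si-hnRNPK was 10.1, with a 95% exact (Clopper-Pearson) counting interval of 9.77 to 10.4, and the difference in log2(CPM + 1) of 3.32 was the 15th highest of 13672. Such intervals cover counting error only, and reads copied by PCR are not independent molecules. In the si-lncRNA-LBCS-labelled library the ratio was 0.569 (0.542 to 0.597) and in si-PTBP1 0.633 (0.601 to 0.666), neither past the rule. Set against those 2 knockdown libraries in place of the control, the si-hnRNPK level was 17.7 and 16.0 times higher.

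IFIH1 (chr2:162267079-162318703, minus strand) had 4.35 CPM with control siRNA, 3.43 in the si-lncRNA-LBCS-labelled library, 38.9 with si-hnRNPK and 2.46 with si-PTBP1. Its order over the libraries differed from that of DDX58 only at the lower end, where si-PTBP1 was lowest. The si-hnRNPK ratio to control was 8.95 (7.88 to 10.2), and the difference of 2.90 ranked 23 of 13672. The ratio was 0.789 (0.660 to 0.942) in the si-lncRNA-LBCS-labelled library and 0.566 (0.457 to 0.697) in si-PTBP1.

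DHX58 (chr17:42101404-42112733, minus strand) was barely measured outside the si-hnRNPK library. It had 5 reads with control siRNA, 7 in the si-lncRNA-LBCS-labelled library, 59 with si-hnRNPK and 8 with si-PTBP1, or 0.0815, 0.0997, 1.09 and 0.143 CPM. The si-hnRNPK ratio of 13.3 was the highest of the 8 but also the least precise, with an interval of 5.40 to 42.6. On the log2(CPM + 1) scale, which understates changes of low genes, DHX58 differed by 0.95 and lay just below the rule, as EIF2AK2 at 1.10 lay just above it. The intervals of the other knockdown ratios, 0.334 to 4.89 and 0.505 to 6.80, were too wide to show a difference at this depth.

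EIF2AK2 (chr2:37099210-37157065, minus strand), the PKR gene, had 81.3 CPM with control siRNA, 73.5 in the si-lncRNA-LBCS-labelled library, 175.3 with si-hnRNPK and 77.9 with si-PTBP1. It was expressed at a solid level in every library and changed by a smaller factor than the helicases. Its si-hnRNPK ratio was 2.16 (2.08 to 2.23), ranking 371 of 13672. The other ratios were 0.904 and 0.959.

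TLR3 (chr4:186069152-186088069, plus strand), the endosomal receptor, had 0.864 CPM with control siRNA, 0.598 in the si-lncRNA-LBCS-labelled library, 6.48 with si-hnRNPK and 0.482 with si-PTBP1. Only the si-hnRNPK library exceeded 1 CPM. There the ratio was 7.51 (5.61 to 10.2) and the difference of 2.01 ranked 69 of 13672. The ratio was 0.692 (0.451 to 1.06) in the si-lncRNA-LBCS-labelled library and 0.558 (0.337 to 0.903) in si-PTBP1.

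**Figure D2:**
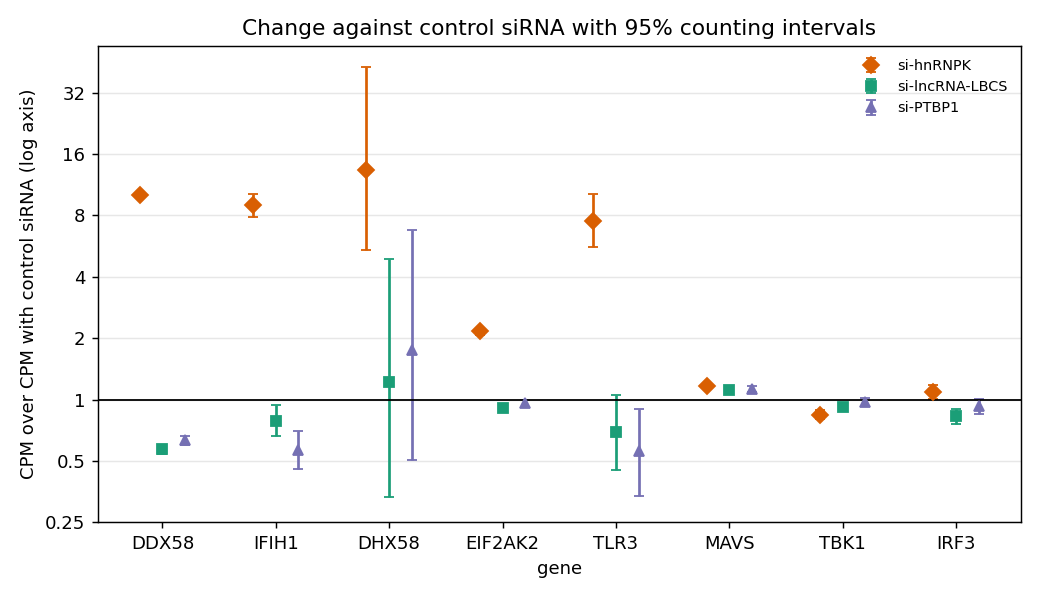
CPM in each knockdown library divided by CPM with control siRNA (log axis); points are the ratios of single libraries and bars the 95% counting intervals. The 5 sensors sit above 2 in si-hnRNPK, from 2.16 for EIF2AK2 to 13.3 for DHX58, and MAVS, TBK1 and IRF3 sit near 1 in all 3 comparisons.

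MAVS (chr20:3846799-3876123, plus strand), the adaptor shared by RIG-I and MDA5, had 105.0 CPM with control siRNA, 116.7 in the si-lncRNA-LBCS-labelled library, 121.7 with si-hnRNPK and 117.9 with si-PTBP1. Here the control was the lowest of the 4, and the 3 knockdown libraries lay close together. The ratio to control was 1.16 (1.12 to 1.20) in si-hnRNPK, and against si-PTBP1 in place of the control it was 1.03 (0.998 to 1.07).

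TBK1 (chr12:64451880-64502108, plus strand), the kinase, had 63.4 CPM with control siRNA, 58.0 in the si-lncRNA-LBCS-labelled library, 53.4 with si-hnRNPK and 61.5 with si-PTBP1. It was the only one of the 8 that was lower than control with si-hnRNPK, at a ratio of 0.842 (0.802 to 0.884).

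IRF3 (chr19:49659569-49665875, minus strand), the transcription factor, had 19.3 CPM with control siRNA, 15.9 in the si-lncRNA-LBCS-labelled library, 21.0 with si-hnRNPK and 17.9 with si-PTBP1. Its si-hnRNPK ratio was 1.09, with an interval of 1.00 to 1.18, and it was lowest in the si-lncRNA-LBCS-labelled library, at 0.827 (0.761 to 0.898).

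In the other 2 comparisons no sensor or adaptor passed the rule. For the si-lncRNA-LBCS-labelled library 0 of the 6 genes compared rose or fell, beside 0.378% up and 1.01% down of 13492 genes, and the median over all 8 was -0.18 beside -0.01. For si-PTBP1 0 of 6 rose or fell, beside 2.92% up and 0.613% down of 13855 genes, with a median of -0.08 beside 0.12. The scale was not the same in all libraries: a median-of-ratios factor shifted si-hnRNPK by -0.11 and si-PTBP1 by 0.13 on the log2 scale against control. At a looser threshold of 1.5-fold on the same scale, DDX58 fell in the si-lncRNA-LBCS-labelled library (1 of 6, beside 4.14% of genes up and 5.74% down), and DDX58 and IFIH1 fell in si-PTBP1 (2 of 6, beside 12.1% up and 3.12% down). In si-hnRNPK DHX58 then joined the rising genes (5 of 8, beside 9.89% up and 15.8% down). Against the other knockdown libraries in place of the control, DDX58, IFIH1, EIF2AK2 and TLR3 rose in si-hnRNPK, beside 3.1% of genes that rose against the si-lncRNA-LBCS-labelled library and 2.37% against si-PTBP1. Rescaled by the median-of-ratios factor, the MAVS ratio in si-PTBP1 went from 1.12 to 1.03 (0.993 to 1.06). In si-hnRNPK the same rescaling moved MAVS away from 1, from 1.16 to 1.25 (1.21 to 1.30), and IRF3 from 1.09 to 1.18 (1.09 to 1.28). It moved TBK1 towards 1, from 0.842 to 0.910 (0.867 to 0.955). The MAVS ratio of si-hnRNPK to si-PTBP1 went from 1.03 to 1.22 (1.18 to 1.26).

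**Figure D3:**
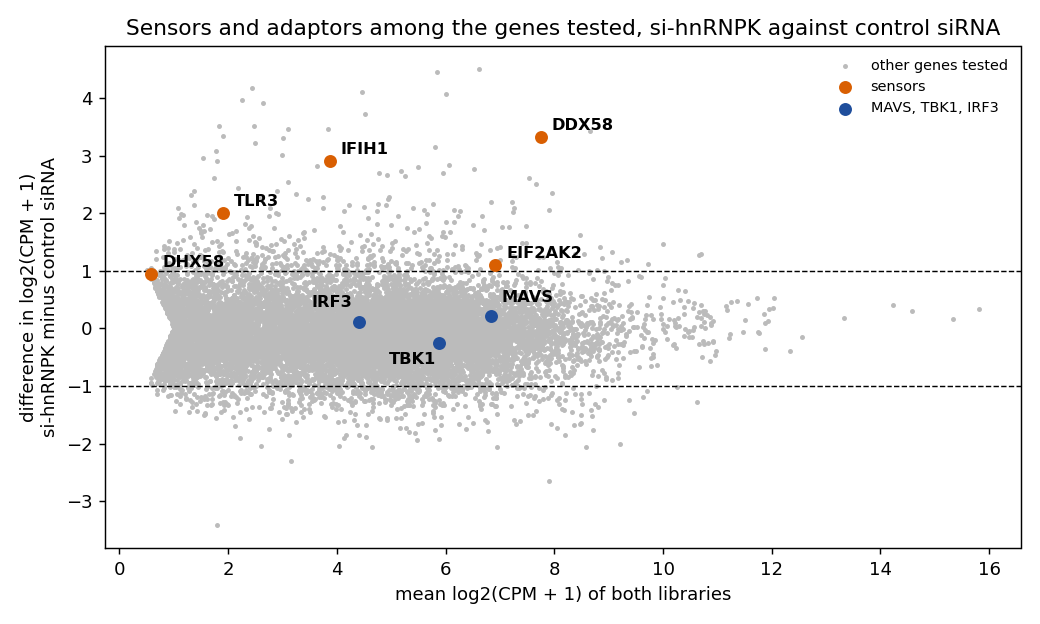
Difference in log2(CPM + 1) between the si-hnRNPK and control libraries (vertical axis) against the mean log2(CPM + 1) of both (horizontal axis) for the 13672 genes compared; grey points are the other genes, orange the sensors and blue MAVS, TBK1 and IRF3, and dashed lines mark differences of 1 and -1. DDX58 at 3.32 and IFIH1 at 2.90 lie far above the bulk, EIF2AK2 at 1.10 and DHX58 at 0.95 lie at the upper line, and the blue points lie within the bulk.

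Because every library has a single scale, the balance among the 8 genes within a library does not depend on it. DDX58 took 19.7% of the reads of the 8 with control siRNA, 12.5% in the si-lncRNA-LBCS-labelled library, 61.8% with si-hnRNPK and 13.2% with si-PTBP1. MAVS, TBK1 and IRF3 together took 55.0%, 62.2%, 17.9% and 61.5% in the same order. Their own summed level was 196.1 CPM in the si-hnRNPK library, against 187.7 CPM in the control, so the smaller share there did not go with a lower level. The 8 genes together stood at 1095 CPM in si-hnRNPK, against 306.5 to 341.4 CPM in the other libraries.

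Pairs of genes showed which levels kept their proportion. There were 5.04 reads of IFIH1 for each read of TLR3 with control siRNA, 5.74 in the si-lncRNA-LBCS-labelled library, 6.01 with si-hnRNPK and 5.11 with si-PTBP1. The 4 counting intervals of this ratio overlapped, the widest being 3.37 to 8.03 in si-PTBP1. The reads of DDX58 for each read of IFIH1 were 15.4, 11.1, 17.4 and 17.3 in the same order, where the si-lncRNA-LBCS-labelled library, with an interval of 9.75 to 12.7, lay below the rest. By contrast there were 0.639, 0.327, 5.56 and 0.360 reads of DDX58 for each read of MAVS, with si-hnRNPK far from the rest. For EIF2AK2 over MAVS the ratio was 1.44 in si-hnRNPK, against 0.630 to 0.774 in the others. These read ratios are not corrected for transcript length and compare the libraries, not the levels of both genes.

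**Figure D4:**
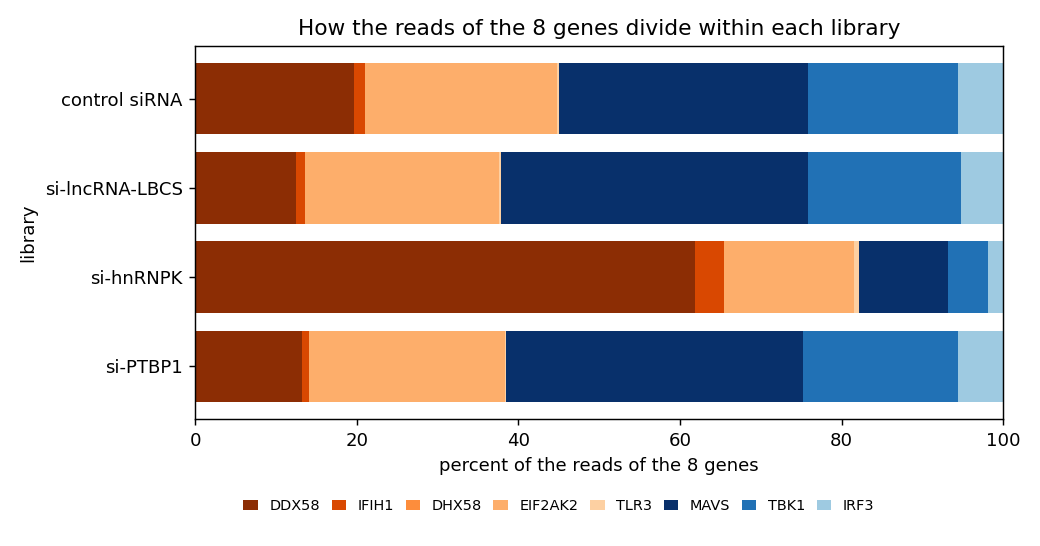
Share of the reads of the 8 genes that each took in each library, in percent, with 1 bar per library; orange shades are the sensors and blue shades MAVS, TBK1 and IRF3. DDX58 widens from 19.7% with control siRNA to 61.8% with si-hnRNPK, and the blue segments narrow from 55.0% to 17.9%.

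To compare levels between genes, CPM was divided by the length of the longest annotated transcript, per 1000 bases. With control siRNA the order in CPM per 1000 bases was TBK1 (19.5), DDX58 (15.4), MAVS (8.97), EIF2AK2 (8.09), IRF3 (6.70), IFIH1 (1.21), TLR3 (0.144) and DHX58 (0.0311). No neighbours in that order had overlapping counting intervals. With si-hnRNPK DDX58 led at 155.6, followed by EIF2AK2 (17.5), TBK1 (16.4), IFIH1 (10.8) and MAVS (10.4), of which IFIH1 and MAVS had overlapping intervals, 10.4 to 11.3 and 10.1 to 10.6. IRF3 (7.31), TLR3 (1.08) and DHX58 (0.415) followed. Thus by this length IFIH1 moved up to the level of its adaptor, and DDX58 passed every other gene of the set. In the si-lncRNA-LBCS-labelled library and in si-PTBP1 the order was TBK1, MAVS, DDX58, EIF2AK2, IRF3, IFIH1, TLR3 and DHX58. There the intervals of TLR3 and DHX58 overlapped in both libraries, and those of MAVS (9.82 to 10.3) and DDX58 (9.37 to 10.2) in si-PTBP1. When the union of exons was used as length, 28 of 32 places stayed the same. DDX58 then stood above TBK1 in the control, and MAVS above IFIH1 in si-hnRNPK.

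Short stretches of the promoters are shown because several of these genes were high in the same library. RefSeq (GRCh38.p14) windows of 300 bases, from 250 before to 50 after the start of transcription, were at hand for 6 of the 8 genes. DHX58 and IRF3 had no window. Both strands were searched for GAAANNGAAA, the core of the interferon-stimulated response element bound by IRF proteins, for TTCNNNGAA, a STAT dimer site, and for GGGNNNNNCC, a loose NF-κB pattern. Capitals mark the matches of the pattern named on each line, and each sequence reads along its gene's strand. The longer IFIH1 stretch also holds 2 NF-κB pattern matches, at 89 and 76 bases before the start, left in lower case.
IFIH1, 2 overlapping cores, chr2:162318745-162318864, minus strand: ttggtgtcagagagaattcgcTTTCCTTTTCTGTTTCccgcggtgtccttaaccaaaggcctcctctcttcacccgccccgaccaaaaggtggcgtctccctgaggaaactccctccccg
IFIH1, core near the start, chr2:162318686-162318715, minus strand: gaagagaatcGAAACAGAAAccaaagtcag
EIF2AK2, core, chr2:37156967-37156996, minus strand: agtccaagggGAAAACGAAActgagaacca
TLR3, core, chr4:186069142-186069171, plus strand: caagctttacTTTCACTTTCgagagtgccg
DDX58, NF-κB pattern, chr9:32526253-32526282, minus strand: tcatttcctcGGAAAATCCCtgctttcccc

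The interferon-stimulated core was present in 3.57% of 35116 promoters, and in the windows of IFIH1, EIF2AK2 and TLR3. IFIH1 had 3 matches, at 159, 153 and 21 bases before the start, EIF2AK2 had 1 at 6 bases and TLR3 1 at 4 bases. Distances are to the first base of a match, so those of EIF2AK2 and TLR3 run across the start. The stretches of DDX58 and EIF2AK2 lie inside the spans given above, because RefSeq places the start downstream of the longest GENCODE transcript. The TLR3 stretch and the IFIH1 stretch near the start lie partly inside. The first transcribed bases of the MAVS window were not found in its longest coding transcript. No match lay in the windows of DDX58, MAVS and TBK1, which says only that these letters are not in those windows. The STAT dimer letters, in 7.66% of promoters, occurred only in TLR3, at 178 and 50 bases before the start. The NF-κB pattern is too loose to set genes apart: it was in 58.7% of promoters, and in those of DDX58, IFIH1, MAVS and TBK1.

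The pathway around the 8 genes was described with 7 lists holding 146 genes, of which 136 were matched to an identifier and 5 stood in 2 lists. In si-hnRNPK 27 of the 122 genes compared rose and 1 fell, beside the 3.55% and 3.93% of all genes given above. Of those 27, 12 were first-wave products of the pathway.

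Among 12 first-wave products of IRF3 and NF-κB that were compared, of 24 in the list, 12 rose, with a median difference of 2.35. Without the filter the median was 1.26 over 20 genes, of which 12 rose. Of the 12, TNF, RSAD2 and CCL20 passed the filter only through their si-hnRNPK level, and 9 of the 9 at 1 CPM in the control rose. IFIT1, which binds foreign RNA ends, stood at 466.3 CPM against 19.6 CPM, a difference of 4.50. ISG15, a ubiquitin-like modifier, differed by 4.07. RSAD2 (viperin, an antiviral enzyme) differed by 3.51 and IFIT2 by 2.84.

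Of 14 interferon receptor and signalling genes 4 rose and 0 fell. Among them, USP18, a brake on the interferon receptor, rose by 2.69. STAT2, a transcription factor that interferon activates, rose by 1.84, and IRF9, its DNA-binding partner, by 1.24. The list's median was 0.29. Other nucleic acid sensors gave 5 rising genes of 18: OAS1 (4.11), OAS2 (3.52) and OASL (2.10), members of the oligoadenylate synthetase family, besides IFI16 (1.60), a DNA sensor, and OAS3 (1.29). OAS2 passed the filter only through si-hnRNPK.

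The relay below the adaptors was mostly close to control. There 3 of 20 genes rose, namely IRF7, an interferon-induced relative of IRF3, by 3.72, IRF1 by 1.49 and TRADD by 1.28, and the median was 0.14. The list drawn up for positive regulators of the RIG-I-like receptors gave 2 rising genes of 20, IFIT3 (2.70) and DDX60 (1.96). In the same list 1 gene fell, the RNA helicase DDX21 (-1.23). In the list drawn up for restraint of these receptors or MAVS, 3 of 23 genes rose, TRIM21 (1.79), NLRC5 (1.34) and TNFAIP3 (1.27, the deubiquitinase A20). Genes were placed in these lists by name, and some may act at other steps or in the other direction. Their roles in these cells were not tested. Around PKR, 1 of 20 genes rose: PPP1R15A (1.38), also called GADD34, which directs the phosphatase that reverses eIF2α phosphorylation. Of all genes compared, 3.55% rose and 3.93% fell, so nothing is read from a count of 1 in 20. The medians of these last 3 lists, 0.07, 0.04 and -0.10, lay close to the -0.11 of all genes.

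**Figure D5:**
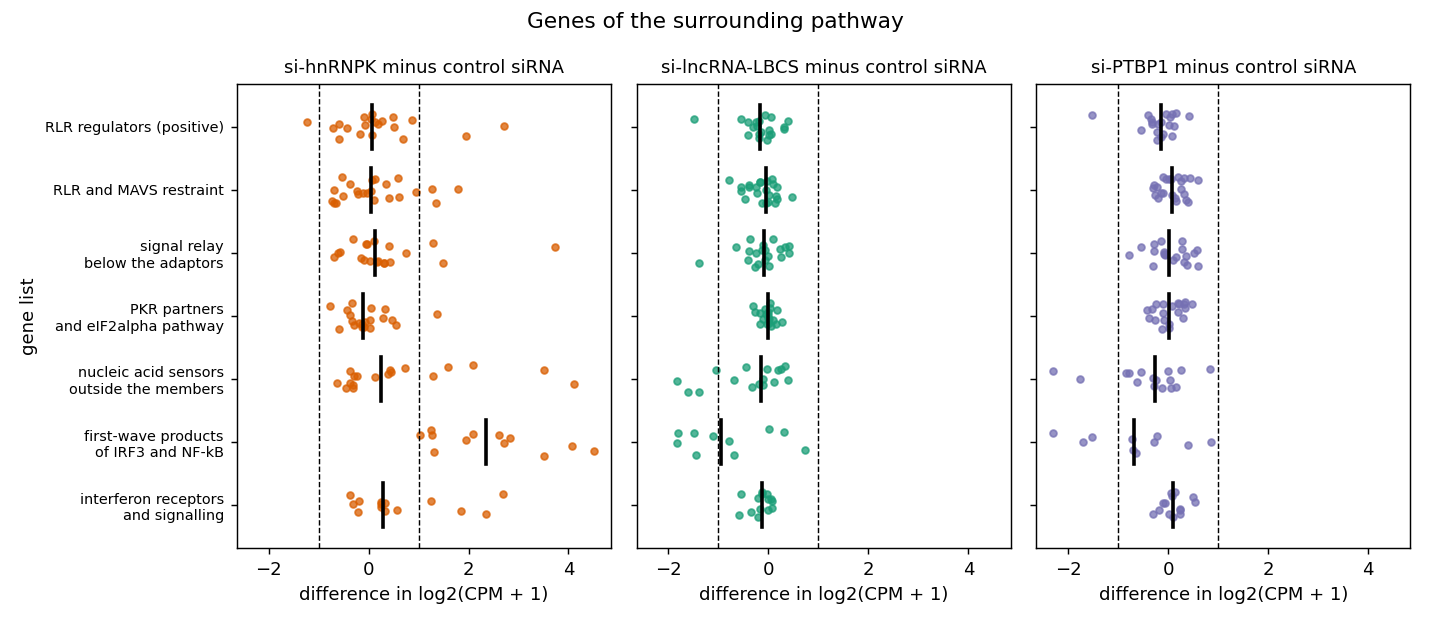
Difference in log2(CPM + 1) from control siRNA for each gene compared (points) in 7 lists of the pathway (rows), in 1 panel per knockdown library; black bars are list medians and dashed lines mark -1 and 1. In si-hnRNPK the 12 first-wave products compared lie above 1 and the list's median is 2.35, while in the other panels that list's medians are -0.96 and -0.68 among genes that passed the filter of 1 CPM.

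Among the first-wave products some fell in the other libraries. The medians of the 10 compared were -0.96 and -0.68, but without the filter they were -0.09 and -0.13 over 16 genes. In the si-lncRNA-LBCS-labelled library 5 of the 10 compared fell, OASL (-1.84), IFIT2 (-1.81), IFIT3 (-1.49), NFKBIA (-1.44) and CXCL8 (-1.12), and 0 rose, beside 1.01% of all genes down and 0.378% up. In si-PTBP1 3 of 10 fell, OASL (-2.30), IFIT2 (-1.70) and IFIT3 (-1.53), beside 0.613% down and 2.92% up. IFIT1, the product with the highest difference in si-hnRNPK, differed by 0.01 in the si-lncRNA-LBCS-labelled library and by -0.65 in si-PTBP1. The latter is past the looser threshold of 1.5-fold but not past the rule. In all lists together 8 of 118 genes fell in the si-lncRNA-LBCS-labelled library and 4 of 118 in si-PTBP1, and 0 rose in either, to be read against the same shares of all genes. NLRP3, a sensor of the inflammasome, differed by -1.60 and -1.76, and STING1 (-1.39) and NLRP1 (-1.04) fell only in the former; the difference between these libraries was not tested. A high level in the shared control library and a low level in each knockdown library cannot be told apart.

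The sum of the white blood cell markers was 3.59 CPM in the si-hnRNPK library and 0.883 to 2.26 CPM in the others, over the 6 of 11 that were matched. ITGAM alone gave 2.78 CPM of it. Without ITGAM the sum was 0.810 CPM with si-hnRNPK and 1.29 CPM with control siRNA, and CSF1R stood at 0.571 and 1.04 CPM. CD14, CD68 and NKG7 were at or near 0 in every library, and the other 5 of the list were not analysed here. The part of such cells in the differences above was not tested.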

How the data were processed

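RNA from 4 UM-UC-3 cultures was sequenced, with 1 library per condition. The deposited tables, 1 per library, give CPM values that the authors computed per gene; the submitters' processing notes name hg19, while the aligner, counter and use of strand are not given in the sources used here. CPM steps gave whole reads for 100% of genes with reads (tolerance 0.01 read). With no replicates no count model was fitted. Genes were called at a difference of 1 or more in log2(CPM + 1), among those at 1 CPM or more in either library. Ratios carry 95% Clopper-Pearson intervals, and levels per length Poisson intervals; 3 reads, the limit that a count of 0 allows, equal 0.0427 to 0.0552 CPM. Symbols, positions and transcripts came from GENCODE 29 (GRCh38) by identifier, for 25647 of 27629 genes, and promoters from RefSeq. The members, gene lists and the naming rule (all 8 genes, the 4 highest rises and 2 largest falls of each list, other genes past the rule and the 3 nearest patterns) were chosen with earlier results of these data known. Python 3.11.15, numpy 2.4.6, pandas 2.3.3 and scipy 1.17.1 were used, tested on simulated data. Alternatives were another pseudocount, filter, fold, scaling, reference library and gene length, and an added binomial test. Values of some list genes are not reported here.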

Additional observations from a re-analysis of the deposited data

How the results depend on the processing

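The 4 sensors that rose in si-hnRNPK kept their call under every alternative run, and DHX58 joined them (5 of 8) with a pseudocount of 0.1, a 1.5-fold threshold or median-of-ratios scaling. Counts moved elsewhere. With a pseudocount of 0.1 the genes changed went from 1023 to 1785 in si-hnRNPK, from 187 to 518 in the si-lncRNA-LBCS-labelled library and from 489 to 966 in si-PTBP1, and at 1.5-fold to 3517, 1333 and 2105. At 1.5-fold DDX58 (1 gene) fell in the si-lncRNA-LBCS-labelled library, and DDX58 and IFIH1 (2 genes) in si-PTBP1, while the pathway genes changed went from 28 to 47, from 8 to 14 and from 4 to 14. With the other knockdowns, si-hnRNPK included, averaged geometrically as reference, the sensors falling were 2 in the former (DDX58, IFIH1) and 3 in si-PTBP1 (DDX58, IFIH1, TLR3), and the pathway genes 19 and 11, beside 179 of 13470 and 96 of 13752 genes that fell. Median-of-ratios scaling changed the split of rising and falling genes from 486 and 537 to 610 and 374 in si-hnRNPK and from 404 and 85 to 256 and 132 in si-PTBP1. The si-PTBP1 or si-lncRNA-LBCS library alone as reference for si-hnRNPK was chosen after seeing the data, and left the 4 calls in place. An exact binomial test of reads passed 79.5%, 70.2% and 73.5% of genes; it compares libraries, not conditions, and adding it to the threshold changed no count of all genes or of the 8. No paired analysis was possible because each condition has 1 library. Depth limits DHX58 and TLR3 outside si-hnRNPK.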

Other observations

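Interferon beta itself was near the limit of detection. IFNB1, named here after its values were seen, had 29 reads with si-hnRNPK, 1 with control siRNA and 1 with si-PTBP1, and was not listed for the si-lncRNA-LBCS-labelled library; the ratio to control was 32.8 with a counting interval of 5.43 to 1339. CXCL10, a chemokine induced by interferon and also named after the fact, had 27 reads with si-hnRNPK and 0 with control siRNA. That level was 10.2 times a floor of 3 reads in the control library, without the counting error of the 27 reads. CXCL11 had 15 reads against 0, or 5.65 times the same floor. Other products with few reads were less clear. IL6 had 11 reads against 7 and IFNL1 3 against 1, with ratio intervals of 0.629 to 5.40 and 0.272 to 178. IFNL2 had 6 reads against 0. IFNE was highest with si-PTBP1, at 45 reads, against 31 with si-hnRNPK and 13 with control siRNA.

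The genes whose 3 differences from control lay nearest to those of the sensors were taken from the 13310 genes compared in all 3 knockdowns, by Euclidean distance. For DDX58 these were IFIH1 (0.671), IFI44 (0.687) and TRANK1 (0.700), and for IFIH1 they were IFI44 (0.340), TRANK1 (0.618) and DDX58 (0.671). The sensor EIF2AK2 had other nearest genes, TBX19 (0.110), ROBO3 (0.125) and SQOR (0.153). For MAVS the nearest were CYB5D2 (0.0226), BAX (0.0270) and OXLD1 (0.0279), at far smaller distances, since many genes lie near 0 in all 3 comparisons.

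Neighbouring genes did not share the direction of the sensors throughout. GPATCH11, which overlaps the end of EIF2AK2 by 35 bases on the opposite strand, went from 35.7 CPM with control siRNA to 16.5 CPM with si-hnRNPK, a difference of -1.07. GCA, which runs away from IFIH1 on the opposite strand and starts inside the longer IFIH1 stretch printed above, went from 2.22 to 6.65 CPM, a difference of 1.25. BCL2L12, which overlaps IRF3 by 734 bases on the opposite strand, differed by -0.71, and since use of strand in counting is not given, reads in that overlap could belong to either gene.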
